A study of Homo sapiens with 6 samples.

Results

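The transcriptomes of Kasumi-1 cells carrying either of 2 short hairpin RNAs against JMJD1C were compared gene by gene. Kasumi-1 is a human acute myeloid leukemia line with myeloblast features that carries the AML1-ETO fusion, and all 3 groups of cells share that background. Each group was collected 4 days after infection with pLKO virus, made in 293T cells, that carried the control shRNA, the JMJD1C shRNA63 or the JMJD1C shRNA95, and had 2 libraries of total RNA. The labels do not state whether the 2 libraries of a group are separate cultures, so p-values cover no more than the spread of these libraries, which may be technical. Each hairpin group had been compared with the control group in a table of its own, and both tables rest on the same control libraries. For each gene, log2((FPKM + 1)/(FPKM + 1)) of the hairpin over the control group was taken in the shRNA63 table, and the same ratio in the shRNA95 table was subtracted from it. FPKM counts sequenced fragments per unit of transcript length and of sequencing depth, so it is a level per length. The difference is negative where a gene was lower with shRNA63 than with shRNA95, each relative to its control. It was taken for 14014 of the 62016 genes of the tables, those that the authors could test in both tables and that reached 1 FPKM in either group of each. At that limit, TMEM238 reached 1.0002 FPKM in the table where it was lower and was included, and complement C2 reached 0.9996 FPKM and was not.

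A short hairpin RNA is processed into a small RNA that guides an Argonaute protein to a matching mRNA. A pair of hairpins against 1 gene share the intended target but not the guide sequence, so each can also touch other mRNAs of its own. They can also lower the shared target to unlike degrees. Their comparison shows which genes differ between the hairpins and not why. JMJD1C belongs to the KDM3 group of JmjC proteins, and its relatives KDM3A and KDM3B remove methyl groups from lysine 9 of histone H3. It has been described as a coactivator in leukemia cells. The sequences and target sites of the hairpins were not used here. All values come from 1 cell line. The tables hold 1 value per group, so the spread between the libraries of a group could not be shown, and whether the groups overlap library by library cannot be told.

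JMJD1C itself (ENSG00000171988, in a locus at chr10:64926981-65225722 of hg19 that holds 6 annotated genes) was measured at 30.4 FPKM in the control group and 13.7 FPKM with shRNA63, in the authors' deposited table. In the authors' deposited table for the other hairpin it was at 29.4 FPKM in the control group and 25.1 FPKM in the group labelled shRNA95. The shRNA63 group therefore held 45.1% of its control level, and the shRNA95-labelled group 85.3%. The log2 fold changes differed by -0.92 with an error of 0.42 (95% interval -1.75 to -0.09), and the adjusted p was 0.691 over the 13870 genes that could be tested. The adjusted p was 0.0481 when the shared control's part of the error was removed, and 0.316 to 0.947 in the other alternatives. That part was not estimated: the control was assumed to add as much variance as each hairpin group. The mRNA level thus checks the label of shRNA63 and does not check that of shRNA95, and every direction below that rests on the second hairpin is drawn from libraries labelled shRNA95. For every difference below, the guide sequence and the remaining level of JMJD1C cannot be told apart, and neither was tested as its source. KDM3A, at 36.4 FPKM with shRNA63 and 22.7 FPKM in the shRNA95-labelled group, gave a difference of 0.62 on the pseudocount scale and did not pass the test, with an interval of -0.73 to 2.0 for the log2 fold changes. KDM3B gave 0.24 and did not pass either. Of the 10 measured demethylases of histone H3 lysine 9 and their relatives, 7 had a difference above 0, none passed the test in either direction (only JMJD1C at an unadjusted p under 0.05), and the median was 0.18 against -0.035 over all genes.

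Across all genes the difference was small and centred slightly below 0. Its median was -0.035, its quartiles were -0.27 and 0.20, and 54.2% of genes were below 0. The test divides the difference between the log2 fold changes of the authors' tables by its error, which was 0.53 at the median, and calls a gene at an adjusted p under 0.05. It called 150 of 13870 genes. Higher with shRNA63 were 49 genes (0.353% of those tested) and lower were 101 genes (0.728%). With other settings of the error the counts ranged from 6 to 199 higher and from 31 to 388 lower genes, with more lower than higher in each. Without adjustment, 755 genes had a p under 0.05, of which 261 were higher and 494 lower. The smallest called difference of log2 fold changes was 1.24 in size, for a gene whose errors were raised to their lower limit. No smaller difference was called, and genes with larger errors needed larger differences. Genes with more RNA had lower medians: 0.036 for a mean hairpin level of 1 to 5 FPKM, -0.076 for 20 to 100 FPKM and -0.13 above 100 FPKM. The control values of the tables differed by a factor of 1.03 at the median, and 99.97% of 13988 genes lay within 1% of that factor.

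**Figure D1:**
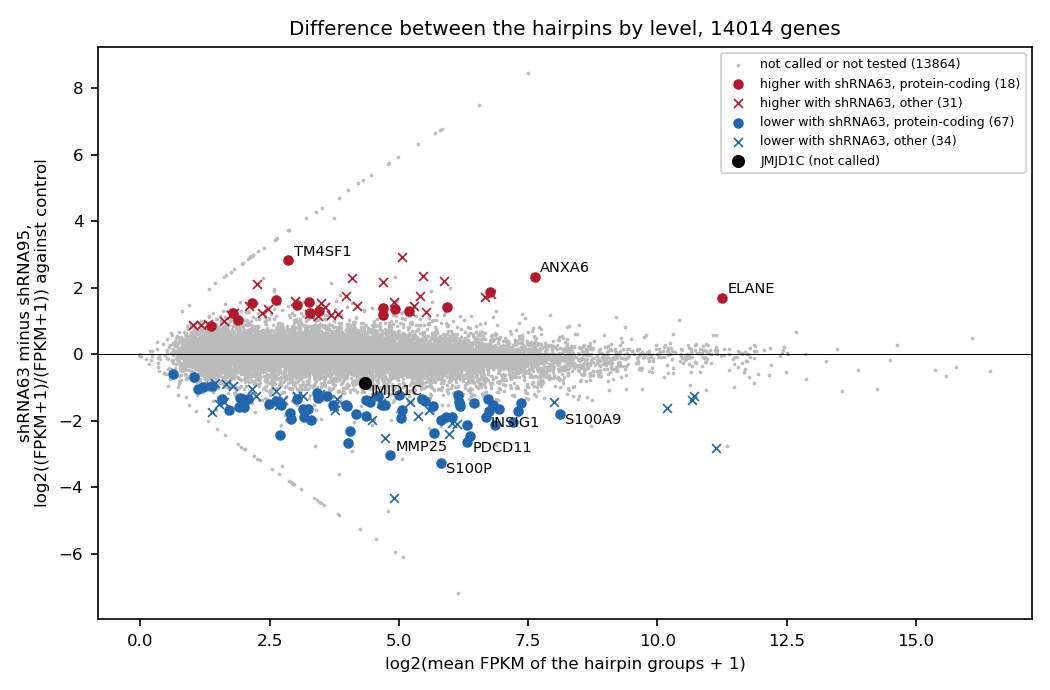
Difference of the log2 ratios (shRNA63 minus shRNA95, each against its control, pseudocount 1 FPKM) against the log2 mean FPKM of the hairpin groups for 14014 genes. Filled red and blue circles are the 18 and 67 protein-coding genes called higher or lower with shRNA63, crosses are the 31 and 34 other called genes, grey points were not called or not tested, and the black circle is JMJD1C; TM4SF1 and S100P lie at the ends of the called protein-coding genes.

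Of the called genes, 85 were protein-coding by GENCODE. Higher with shRNA63 were 18 (0.166% of 10844 protein-coding genes tested) and lower were 67 (0.618%). The other 65 called genes were pseudogenes, long noncoding RNAs, small RNAs and genes without a match in that annotation. The authors had called 51 of these 65 in neither table, against 1 of the 85 protein-coding genes. For the 65 genes the error read from the deposited p-value was 10.3 times that read from the test statistic at the median, against 0.950 times for the called protein-coding genes. Among the 15 highest and 15 lowest called genes by size, 15 were of this kind: U6, 2 Y_RNA and 2 snoU13 genes, AC002477.1, AL139821.1, RP4-800G7.1, AC011453.1 and MIR4263 as higher, and RNU4-2, RNA5-8SP6, Z97632.1, RP11-831H9.3 and ENSG00000214748 as lower. All 15 lost their call with errors from the deposited p-value. The results below are therefore given for protein-coding genes unless a gene is named as something else. Among those 85, 40 lie in a locus with other annotated genes, and reads from overlapping genes cannot be told apart because no source used here gives the strand.

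Several RNAs without a poly(A) tail were picked after their values had been seen. RMRP, the RNA of RNase MRP, was at 22.2 FPKM with shRNA63 and 71.5 FPKM in the shRNA95-labelled group, against 16.1 and 15.6 FPKM in the controls. RN7SK, which holds the elongation factor P-TEFb, was at 12.6 and 35.9 FPKM against controls of 8.47 and 8.21 FPKM. SCARNA2, a Cajal body RNA, was at 2.36 and 8.52 FPKM against 1.69 and 1.63 FPKM. These 3 passed the test as lower with shRNA63. They lost their call with errors from the deposited p-value (adjusted p of 0.154, 0.223 and 0.192 in the order given) and with the larger of both error readings (0.364, 0.538 and 0.463). The smallest deposited p is 5e-05, and at that value the error read from p grows with the fold change. A lost call there can come from that limit. RNA28S5, a ribosomal RNA by its name and without a match in GENCODE, was at 7847 and 16483 FPKM and did not pass (adjusted p of 0.116). RN7SL1 and RN7SL2 of the signal recognition particle gave differences of -0.95 and 0.31 and did not pass. The RNAs given here are a pick, and small RNAs were called in both directions. By GENCODE type, 2 small nuclear RNA genes were called higher with shRNA63 and 2 lower, of 25 tested. Of 74 tested genes of the miscellaneous RNA type 3 were higher and 3 lower, and of 72 small nucleolar RNA genes 2 and 1. Over all genes 0.353% were called higher and 0.728% lower. The values of the RNAs above stand beside every comparison with the shRNA95-labelled libraries, and their part in the other differences was not tested.

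The authors' calls within each table (q under 0.05) show where the called genes moved. By the authors' deposited tables, 319 of the 14014 genes were up (2.28%) and 467 down (3.33%) with shRNA63, and 402 were up (2.87%) and 285 down (2.03%) in the shRNA95-labelled group. Of the 67 protein-coding genes lower with shRNA63, 36 were down in the shRNA63 table alone, 15 were up in the shRNA95 table alone and 10 were down in the one and up in the other. Of the remaining 6, 3 were up in both tables, 2 were down in both and 1 was called in neither. Of the 18 genes higher with shRNA63, 9 were down in the shRNA95 table alone, 4 were up in the shRNA63 table alone, 4 were up in the one and down in the other, and 1 was up in both. Over all 14014 genes, the authors called 116 up in both tables and 96 down in both. Opposite calls were fewer: 13 genes were down with shRNA63 and up in the shRNA95-labelled group, and 5 the reverse. How many of either kind unrelated calls would give was not tested. The difference between hairpins passed the test for 15 of these 18 genes and did not for ATF3, HCST and OBSL1, with adjusted p values of 0.0851, 0.0593 and 0.192.

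S100P, MMP25, AIF1 and CSTA were among the genes called lower with shRNA63, and MMP25 and AIF1 belong to the late neutrophil and the monocyte and macrophage list. S100P (locus chr4:6694796-6698897), a calcium-binding protein of the S100 family, was at 43.9 FPKM in the control and 9.73 FPKM with shRNA63, and at 42.6 FPKM in the control and 100.3 FPKM in the shRNA95-labelled group. It fell with one hairpin and rose with the other, and its log2 fold changes differed by -3.41 ± 0.62 (error, adjusted p of 1.98e-05). MMP25 (locus chr16:3096682-3110727, shared with 2 other annotated genes), a membrane-anchored metalloproteinase of neutrophils, was at 26.2 and 5.41 FPKM in the control and with shRNA63, and at 25.4 and 49.6 FPKM in the control and the shRNA95-labelled group. Its log2 fold changes differed by -3.24 ± 0.49. AIF1, a calcium-binding protein of macrophages, showed the same arrangement, at 50.4 and 16.0 FPKM against 48.8 and 84.7 FPKM, with a difference of -2.45 ± 0.38. CSTA, a cysteine protease inhibitor, moved from 15.1 to 8.11 FPKM and from 14.7 to 31.0 FPKM, also in opposite directions. These 4 kept their call under every alternative that changed the test.

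BPI and RNASE2 of the primary granule list and S100A9 of the late neutrophil list were called up by the authors in the shRNA95 table alone. BPI, an antibacterial protein of primary granules, was at 2.12 and 3.49 FPKM in the control and with shRNA63, and at 2.05 and 27.1 FPKM in the control and the shRNA95-labelled group. S100A9, a subunit of the neutrophil protein calprotectin, was at 91.9 and 126 FPKM against 89.0 and 429 FPKM. RNASE2, the eosinophil-derived neurotoxin, was at 21.9 and 25.3 FPKM against 21.2 and 94.0 FPKM. With shRNA63 the 3 genes held 165%, 137% and 116% of control in the order given, and in the shRNA95-labelled group 1318%, 482% and 444%. SRGN, LCP1, ANXA1, LAPTM5 and CXCR4 belong to none of the myeloid lists and are named for their values. SRGN, the proteoglycan core of secretory granules, was at 57.5 FPKM with shRNA63 and 235 FPKM in the shRNA95-labelled group against controls of 54.9 and 53.2 FPKM. LCP1, the actin-bundling L-plastin of leukocytes, was at 43.5 and 188 FPKM against 64.8 and 62.8 FPKM. S100A8, the partner of S100A9, was listed at 1.03 and 52.7 FPKM against controls under 0.1 FPKM, and with an error of 3.13 its difference did not pass the test. ANXA1, LAPTM5 and CXCR4 were called up by the authors in both tables and rose less with shRNA63: ANXA1, an annexin of myeloid cells, reached 1.05 FPKM with shRNA63 and 10.0 FPKM in the shRNA95-labelled group, LAPTM5, a lysosomal protein of blood cells, 12.8 and 38.2 FPKM, and CXCR4, a chemokine receptor, 5.94 and 18.7 FPKM. For some of these genes the error read from the deposited p-value was the larger one. Where that p is at its smallest value, this error grows with the fold change, so a lost call can come from that limit. With the larger of both readings LCP1 kept its call, while BPI (adjusted p of 0.346), S100A9 (0.319), RNASE2 (0.163), SRGN (0.0997), ANXA1, LAPTM5 and CXCR4 lost theirs.

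The members of the myeloid lists that passed as higher with shRNA63 were ELANE and SLPI, neutrophil elastase and a secreted inhibitor of it. ELANE was at 1143 FPKM in the control and 3744 FPKM with shRNA63, and at 1109 FPKM in the control and 1128 FPKM in the shRNA95-labelled group. It held 328% of control with one hairpin and 102% with the other (difference 1.69 ± 0.36, adjusted p of 0.000632). SLPI was at 36.5 FPKM with shRNA63 and 13.1 FPKM in the shRNA95-labelled group, above its controls of 5.23 and 5.06 FPKM in both. With the larger of both error readings neither was called (adjusted p of 0.138 for ELANE). PRTN3 and AZU1, which neighbour ELANE in the genome and encode related granule proteins, gave differences of 0.67 and 0.56 and did not pass the test. Within the primary granule list, 5 of 10 measured genes had a difference above 0 and 5 below. BPI and RNASE2 passed as lower and ELANE as higher, and the median was -0.15, or 0.135 over genes of at least 5 FPKM. Over all genes 0.353% passed as higher and 0.728% as lower. Of the 4 measured late neutrophil genes, MMP25 and S100A9 passed as lower and SLPI as higher. Of the 7 measured monocyte and macrophage genes, 6 had a difference below 0 and AIF1 passed as lower. At an unadjusted p under 0.05, 2 were lower and 0 higher. CD68, in a locus with 16 annotated genes, was at 7.56 and 35.1 FPKM against controls of 9.62 and 9.33 FPKM. Its difference was -2.12 and did not pass, with an error of 3.07 for the log2 fold changes. LYZ, lysozyme, and MNDA, a nuclear protein of myeloid cells, were far above control in both hairpin groups, at 59.0 and 70.7 FPKM for LYZ, and gave differences of -0.30 and -0.22 that did not pass.

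**Figure D2:**
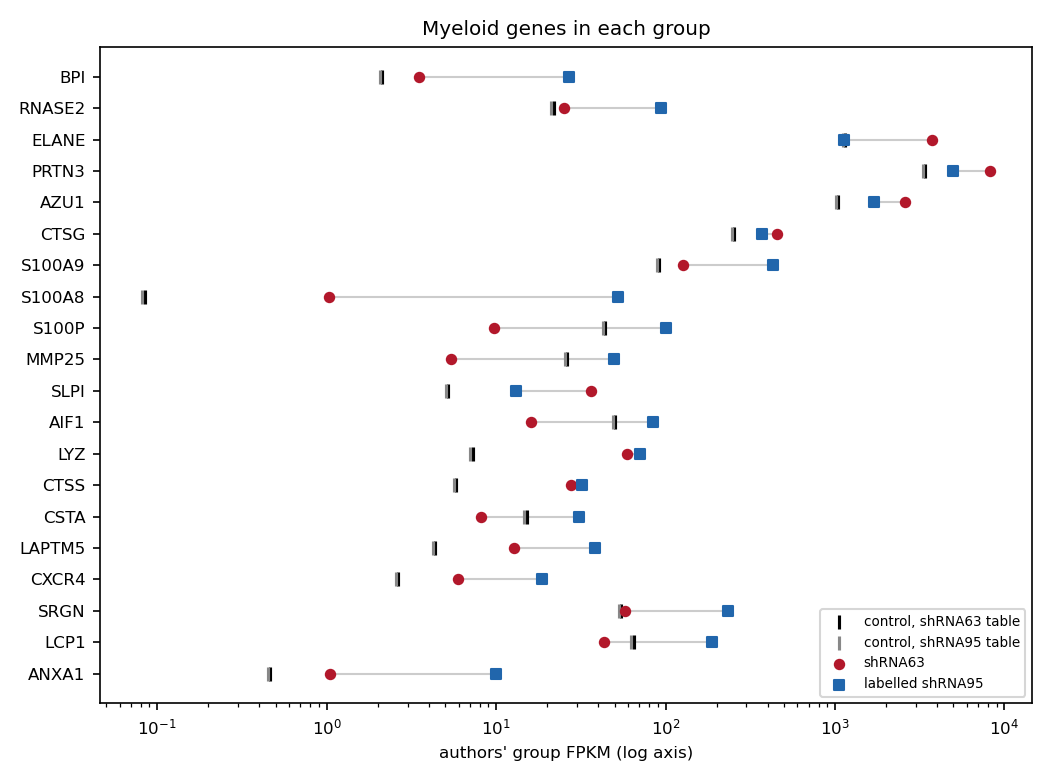
Group FPKM of 20 myeloid genes on a log axis; ticks are the control values of each table, red circles shRNA63 and blue squares the group labelled shRNA95, with 1 value per group and no error bars. The genes were partly chosen for their values, so how many lie on either side is no result; ELANE, PRTN3, AZU1, CTSG and SLPI lie higher with shRNA63, and S100P, MMP25, AIF1 and CSTA lie on either side of the control.

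No marker of a cell type outside the myeloid lists passed the test. The erythroid, megakaryocyte, lymphoid and epithelial lists had 2, 2, 5 and 2 measured members, and their summed levels were 1.79 to 16.8 FPKM with shRNA63 and 4.07 to 20.04 FPKM in the shRNA95-labelled group. HBB, PF4, MS4A1 and PAX2, markers of red cells, platelets, B cells and kidney, were listed at 0 in all groups, while other members of these lists were not at 0. EPCAM, an epithelial adhesion protein, was at 13.9 FPKM with shRNA63 and 16.3 FPKM in the shRNA95-labelled group against controls of 14.4 and 14.0 FPKM, and CDH2, N-cadherin, at 2.11 and 2.95 FPKM against 4.20 and 4.07 FPKM. CD79B, a subunit of the B cell receptor, was at 7.16 and 6.87 FPKM against 10.5 and 10.1 FPKM. CD3D, a subunit of the T cell receptor complex, was at 2.45 and 1.59 FPKM against 8.52 and 8.26 FPKM. EPOR, the erythropoietin receptor, was at 5.12 and 6.31 FPKM against 5.78 and 5.60 FPKM. The part of such cells in the other differences was not tested. At an unadjusted p under 0.05, 1 lymphoid and 1 megakaryocyte gene were lower with shRNA63. Of the 5 measured mast cell, basophil and eosinophil genes none passed: TPSB2, a tryptase, was at 2.69 and 3.46 FPKM against controls of 23.7 and 23.0 FPKM. Among stem and progenitor genes, CD34, the marker of immature blood cells, was at 103 FPKM with shRNA63 and 249 FPKM in the shRNA95-labelled group against controls of 151 and 146 FPKM (adjusted p of 0.0648). MSI2, an RNA-binding protein of stem cells, was at 46.6 and 14.3 FPKM against 44.6 and 43.3 FPKM (adjusted p of 0.331). KIT, the stem cell factor receptor, gave a difference of -0.35 and did not pass. In bulk RNA, fewer cells of a type and less RNA per cell cannot be told apart. MPO, CSF3R and TFRC had no usable value in the authors' deposited tables.

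Among the lists with 10 or more measured genes, the 2 of amino acid supply had the lowest medians. When amino acids are short or the endoplasmic reticulum is stressed, the transcription factor ATF4 is translated more and switches on genes for amino acid synthesis, uptake and tRNA charging. Of 25 measured genes of amino acid synthesis and the ATF4 response, 23 had a difference below 0, 4 passed the test as lower with shRNA63 and none as higher, and the median was -0.80 against -0.035 over all genes. PHGDH, the first enzyme of serine synthesis, was at 139.5 FPKM in the control and 59.4 FPKM with shRNA63, and at 135 FPKM in the control and 149 FPKM in the shRNA95-labelled group. PSAT1, the next enzyme of that pathway, was at 120.3 and 58.2 FPKM against 117 and 165 FPKM. Both were lower than control with shRNA63 by more than their error and had no call by the authors with the other hairpin. ALDH1L2, a mitochondrial folate enzyme, was at 7.29 FPKM with shRNA63 and 22.8 FPKM in the shRNA95-labelled group, against controls of 15.5 and 15.1 FPKM. CHAC1, which breaks down glutathione, was at 2.48 and 8.72 FPKM against 6.42 and 6.22 FPKM. Their adjusted p values were 0.0151, 0.00293, 0.00951 and 0.0194 in the order given. With the larger of both error readings PSAT1 and ALDH1L2 kept their call, and PHGDH (0.13) and CHAC1 (0.057) lost it. ATF4 mRNA itself was at 207 and 295 FPKM against controls of 267 and 259 FPKM and did not pass, with a difference of -0.55.

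ASNS, asparagine synthetase, was named after its values had been seen. It was at 75.1 FPKM with shRNA63 and 163 FPKM in the shRNA95-labelled group against controls of 133 and 129 FPKM, with an adjusted p of 0.0851. All 11 measured amino acid transporters had a difference below 0, with a median of -0.88. SLC7A5, the large neutral amino acid transporter, passed the test at 42.6 and 97.6 FPKM against 74.8 and 72.5 FPKM, with an adjusted p of 0.0484 that was lost in 5 of the alternatives. SLC3A2, its heavy-chain partner, was at 139 and 266 FPKM and did not pass. Of 20 aminoacyl-tRNA synthetases, 19 had a difference below 0, with a median of -0.51, and none passed the test in either direction, with 3 lower and 0 higher at an unadjusted p under 0.05. The share of the 25 synthesis and ATF4 genes called lower was therefore 4 of 25, where 0.728% of all genes and 0.618% of protein-coding genes were. At an unadjusted p under 0.05, 13 of the 25 were lower, where 494 of all 13870 tested genes were. The list was chosen with earlier results of these data known, so these shares are descriptions without a test.

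A letter search of RefSeq promoters (GRCh38.p14, the 250 bases before the gene start, both strands) shows what the promoters of these genes hold. Promoters were at hand for 8396 of 13798 gene symbols. The letters TGATGNAA, the core of the element that ATF4 binds with C/EBP partners, stood in 2.26% of all these promoters, in 5 of 21 of the amino acid synthesis and ATF4 list (ASNS, ATF3, CEBPG, CHAC1, GOT1) and in 1 of 10 of the transporters (SLC1A5). The 4 windows shown are those of CHAC1, which passed the test, of ASNS and SLC1A5, with differences of -1.15 and -0.92 that did not pass, and of CEBPG, a C/EBP family factor whose difference was 0.10. They are printed 5′ to 3′ on the strand of the gene, with the matching letters in capitals; the CHAC1 match is the reverse complement.
CHAC1, chr15:40953240-40953291: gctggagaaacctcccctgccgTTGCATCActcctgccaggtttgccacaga
ASNS, chr7:97872447-97872498: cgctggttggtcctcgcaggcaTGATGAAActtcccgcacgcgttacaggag
SLC1A5, chr19:46784882-46784933: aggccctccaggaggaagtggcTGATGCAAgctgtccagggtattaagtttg
CEBPG, chr19:33374049-33374100: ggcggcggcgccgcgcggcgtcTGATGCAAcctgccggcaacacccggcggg
The matches of CHAC1, SLC1A5 and CEBPG have the same 8 letters, for CHAC1 on the other strand, and the genes differ in their values. CHAC1 was at 2.48 and 8.72 FPKM against controls of 6.42 and 6.22 FPKM. SLC1A5 was at 93.4 and 172 FPKM against controls of 137 and 132 FPKM, and CEBPG at 17.4 and 15.7 FPKM against 22.3 and 21.6 FPKM. A match is a description of the letters and not of binding, and the letters were not found in this window for PHGDH or PSAT1.

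Cholesterol genes lay below 0 in the same way, with 24 of 25 measured genes below 0 and a median of -0.74. When cells are short of sterols, SREBP2 leaves the endoplasmic reticulum and switches on these genes, and INSIG1 holds it back. INSIG1 (locus chr7:155089486-155101945) was the only one of the 25 to pass the test. With shRNA63 it fell from 97.3 to 44.0 FPKM, and in the shRNA95-labelled group it rose from 94.3 to 159.5 FPKM, a difference of -1.90 ± 0.41 (adjusted p of 0.000632). HMGCS1, an early enzyme of the pathway, was at 46.7 and 116 FPKM against 86.9 and 84.2 FPKM, with an adjusted p of 0.115. Within the tables the list's median log2 ratio was -0.17 with shRNA63 and 0.56 in the shRNA95-labelled group. The authors' deposited tables call 2 of the 25 down with shRNA63 and 5 up in the shRNA95-labelled group. Over all genes they call 3.33% down with shRNA63 and 2.87% up in the shRNA95-labelled group. DHCR7, the last enzyme of one branch of cholesterol synthesis, was at 110% and 175% of control. Fatty acid synthesis genes had 13 of 16 below 0, a median of -0.59 and none past the test in either direction, with 2 lower and 1 higher at an unadjusted p under 0.05. The SREBP letters TCACNCCA stood in 3 of 18 promoters of the cholesterol list (MSMO1, MVK, SREBF2) and in 3.97% of all promoters. The windows of MVK, mevalonate kinase, and MSMO1, a sterol demethylating oxidase, are shown with the letters in capitals; their differences were -0.74 and -1.03 and did not pass.
MVK, chr12:109573577-109573628: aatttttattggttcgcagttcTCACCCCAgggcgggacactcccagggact
MSMO1, chr4:165327491-165327542: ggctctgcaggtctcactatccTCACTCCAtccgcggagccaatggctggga

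For genes of endoplasmic reticulum folding, the authors' deposited tables call 1 of 25 up and 1 down with shRNA63, and 11 up and 0 down in the shRNA95-labelled group. Over all genes the authors called 2.28% up and 3.33% down with shRNA63, and 2.87% up and 2.03% down in the shRNA95-labelled group. The median log2 ratio of the 25 measured genes was 0.22 with shRNA63 and 0.63 in the shRNA95-labelled group. Their difference was below 0 for 22 of 25, with a median of -0.60, and none passed the test in either direction. At an unadjusted p under 0.05, 5 were lower and 0 higher, where 494 and 261 of all 13870 tested genes were. HSPA5 and MANF were named after their values had been seen. HSPA5, the chaperone BiP, was at 201 FPKM in the control and 310.0 FPKM with shRNA63, and at 195 FPKM in the control and 458 FPKM in the shRNA95-labelled group. MANF, a secreted stress-response protein, was at 170.3 and 195 FPKM against 165 and 459 FPKM, with an adjusted p of 0.154. CALR, the chaperone calreticulin, was at 3196 and 4713 FPKM against 2310 and 2239 FPKM and did not pass. The endoplasmic reticulum stress element, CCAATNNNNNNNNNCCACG, stood in 17 of all 8396 promoters (0.202%), and 7 of those 17 belong to the 23 list members with a promoter (CALR, CANX, CRELD2, HSP90B1, HSPA5, PDIA6, XBP1). The windows of HSPA5, CALR and HSP90B1 are shown because the element is rare elsewhere, with its letters in capitals and the CALR match in reverse complement.
HSPA5, chr9:125241369-125241431: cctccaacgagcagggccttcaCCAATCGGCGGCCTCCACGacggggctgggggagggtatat
CALR, chr19:12938362-12938424: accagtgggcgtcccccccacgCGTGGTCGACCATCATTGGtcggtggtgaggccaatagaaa
HSP90B1, chr12:103930194-103930256: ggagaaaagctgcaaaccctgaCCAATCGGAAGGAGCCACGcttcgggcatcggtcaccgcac
These genes had differences of -0.60 (HSPA5), -0.60 (CALR) and -0.54 (HSP90B1). Cytosolic and mitochondrial heat shock proteins, which answer misfolding outside that compartment, had a median of -0.14 over 19 measured genes with none past the test, adjusted or not, and the HSF letters GAANNTTC stood in 11 of 18 of their promoters against 5.81% of all.

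**Figure D3:**
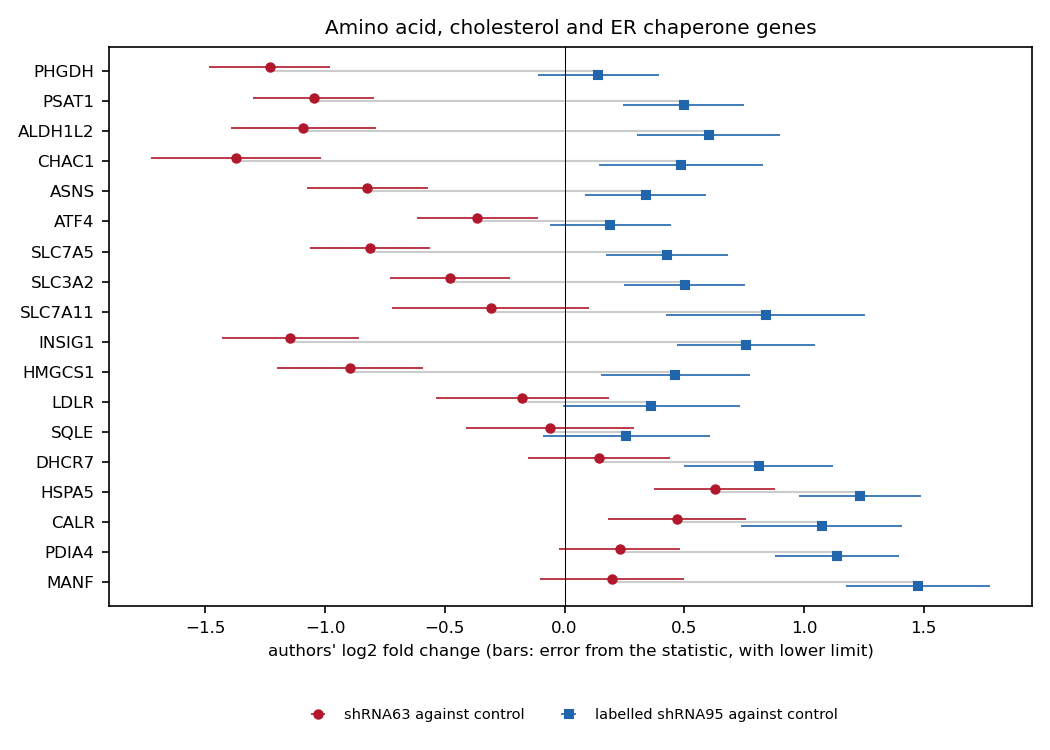
The authors' log2 fold change against control for 18 genes of amino acid supply, cholesterol and endoplasmic reticulum folding, with red circles for shRNA63 and blue squares for the group labelled shRNA95; bars are the error read from the test statistic, with its lower limit. The amino acid genes lie below 0 with shRNA63 and at or above 0 in the shRNA95-labelled group, while HSPA5, CALR, PDIA4 and MANF lie above 0 in both and farther above in the shRNA95-labelled group.

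Of the 22 measured immediate early and ERK feedback genes, 3 passed as lower with shRNA63 and none as higher, where 0.728% of all genes passed as lower. KLF2, a transcription factor of blood and endothelial cells, was at 6.72 and 4.71 FPKM in the control and with shRNA63, and at 6.52 and 26.6 FPKM in the control and the shRNA95-labelled group, a difference of -2.54 ± 0.53. JUN, a subunit of AP-1, was at 0.801 FPKM with shRNA63 and 2.42 FPKM in the shRNA95-labelled group against controls of 1.29 and 1.25 FPKM. EGR1, an immediate early factor, was down in both groups and farther down with shRNA63, at 0.594 and 1.5 FPKM against 3.56 and 3.45 FPKM. EGR1 lost its call in 4 of the alternatives, with adjusted p values up to 1, and KLF2 and JUN kept theirs in all that tested them. Of the 22 genes, 17 had a difference below 0, with a median of -0.43. Glycolysis and lactate transport had 22 of 24 genes below 0 and a median of -0.42, and SLC16A1 was its only call.

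**Figure D4:**
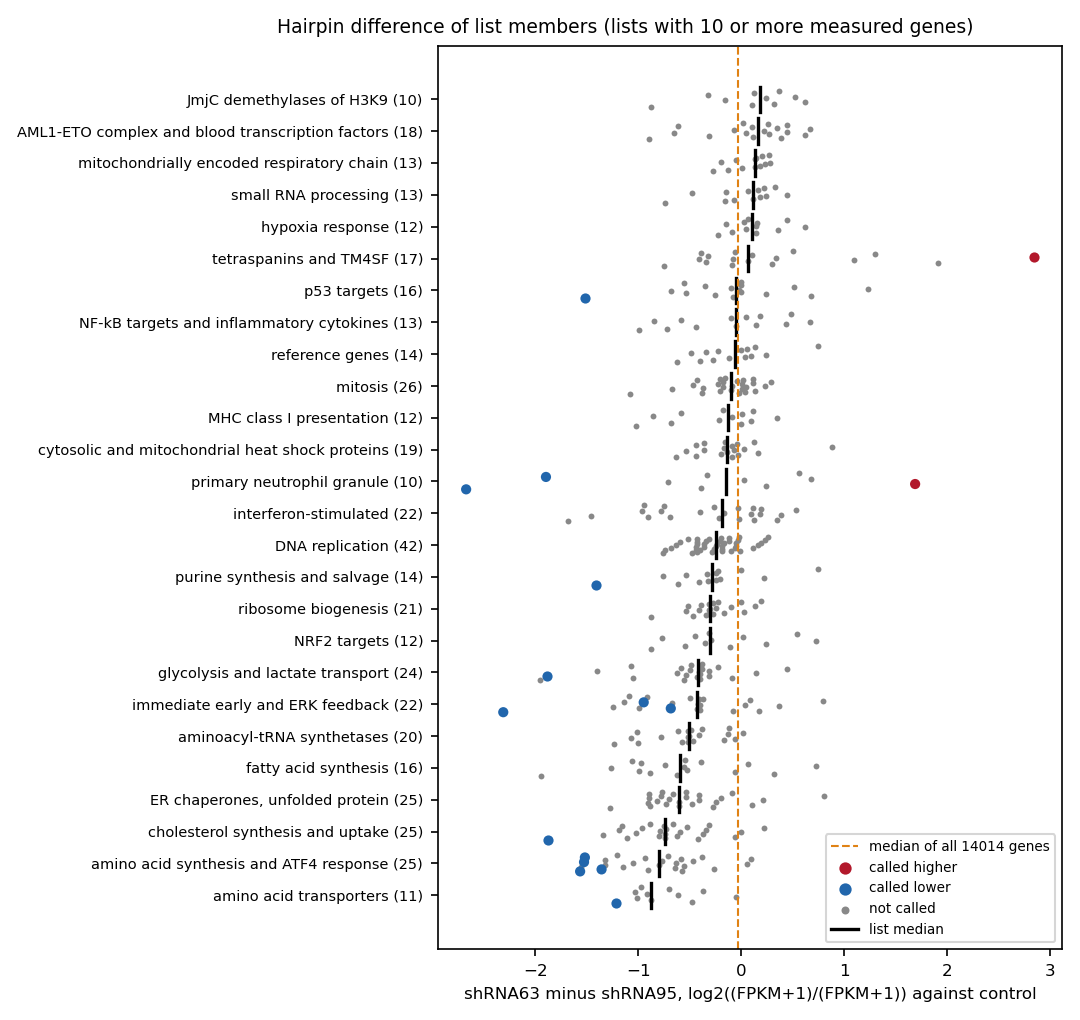
Difference between the hairpins (shRNA63 minus shRNA95, log2 ratios with pseudocount 1 FPKM) for the members of the 26 lists with 10 or more measured genes, whose number follows each name. Black bars are list medians, the dashed line is the median of all 14014 genes, and blue and red points are members called lower or higher; the 2 amino acid lists and the cholesterol list lie lowest.

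Another group of genes was lower than control with shRNA63 and was not called down by the authors with the other hairpin. PDCD11, a factor of ribosomal RNA processing, was at 112 FPKM in the control and 21.9 FPKM with shRNA63, and at 109 FPKM in the control and 137 FPKM in the shRNA95-labelled group. It had a difference of -2.69 ± 0.36 (adjusted p of 2.16e-10), whereas 21 measured genes of ribosome biogenesis had a median of -0.30 with none past the test, adjusted or not. YWHAH, the 14-3-3 protein eta, was at 137 and 25.1 FPKM against 133 and 139.9 FPKM. SLC16A1, the lactate transporter MCT1, was at 105 and 27.6 FPKM against 101 and 102 FPKM. PDHA1, a subunit of pyruvate dehydrogenase, was at 215 and 74.5 FPKM against 208 and 239 FPKM. GPX7, a peroxidase of the endoplasmic reticulum, was at 88.1 and 29.2 FPKM, while in the authors' deposited table of the other hairpin it was called up, from 85.4 to 129 FPKM. For YWHAH, SLC16A1, PDCD11 and PDHA1 the shRNA63 group held 18.3% to 34.7% of its control and the shRNA95-labelled group between 100% and 126%. NRAS, a RAS family protein, had the same arrangement at 18.6 and 43.9 FPKM against 47.1 and 45.7 FPKM. ADSS, an enzyme of purine synthesis, and RRM2B, a ribonucleotide reductase subunit among the p53 targets, were the only calls of their lists, with differences of -1.42 and -1.52. In the shRNA95-labelled group ADSS was at 109% and RRM2B at 152% of control. PDCD11 and GPX7 were called under every alternative, while YWHAH, SLC16A1, PDHA1, NRAS, ADSS and RRM2B were not called with the larger error reading, with adjusted p values from 0.057 to 0.269. NRAS lost its call in 5 of the alternatives.

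The reverse arrangement was that of 9 protein-coding genes, which the authors called down in the shRNA95-labelled group and did not call with shRNA63. ANXA6, a membrane-binding annexin, was at 333 and 332 FPKM in the control and with shRNA63, and at 323 and 63.6 FPKM in the control and the shRNA95-labelled group, a difference of 2.34 ± 0.43 (adjusted p of 2.16e-05). TMEM66, a membrane protein that restrains calcium entry, was at 171 FPKM with shRNA63 and 45.1 FPKM in the shRNA95-labelled group against controls of 149 and 145 FPKM. MYCN, a MYC family factor, was at 13.4 and 3.70 FPKM against 12.5 and 12.1 FPKM. With shRNA63 these 3 held 99.6%, 114% and 107% of control. TRH, a peptide hormone precursor, was at 88.6 and 31.6 FPKM against 109.8 and 106 FPKM. CDKN1C, a cyclin-dependent kinase inhibitor, was at 3.86 and 1.04 FPKM against 3.54 and 3.44 FPKM. IDH1, the cytosolic isocitrate dehydrogenase, was at 51.4 and 19.8 FPKM against 36.5 and 35.4 FPKM, and in the authors' deposited tables only its fall in the shRNA95-labelled group was called. With the larger error reading TMEM66 kept its call (adjusted p of 0.049), and ANXA6 (0.084), MYCN (0.076), TRH (0.363), CDKN1C and IDH1 lost theirs.

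TM4SF1 (locus chr3:149086809-149104370, with 3 annotated genes), a membrane protein of the transmembrane 4 L6 family, had the largest positive difference of the called protein-coding genes. It was at 5.47 FPKM in the control and 11.8 FPKM with shRNA63, and at 5.30 FPKM in the control and 0.747 FPKM in the shRNA95-labelled group. It rose with one hairpin and fell with the other, and its log2 fold changes differed by 3.94 ± 0.50 (adjusted p of 8.85e-12). TOX, an HMG-box factor, was at 8.42 and 1.98 FPKM against 4.66 and 4.52 FPKM. KRCC1, a lysine-rich protein, was at 11.1 and 3.26 FPKM against 5.70 and 5.53 FPKM, and DAP, a regulator of autophagy, at 42.8 and 15.6 FPKM against 28.4 and 27.5 FPKM. These 4 were the protein-coding genes that passed and had been called up with shRNA63 and down in the shRNA95-labelled group in the authors' deposited tables. TM4SF1, TOX and KRCC1 kept their call under every setting that tested them. DAP lost its call with errors below the 25th percentile raised to it. Of 17 measured tetraspanins and TM4SF genes, TM4SF1 alone passed. TSPAN3, at 168 and 65.8 FPKM against 151 and 146 FPKM, had an adjusted p of 0.0683.

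**Figure D5:**
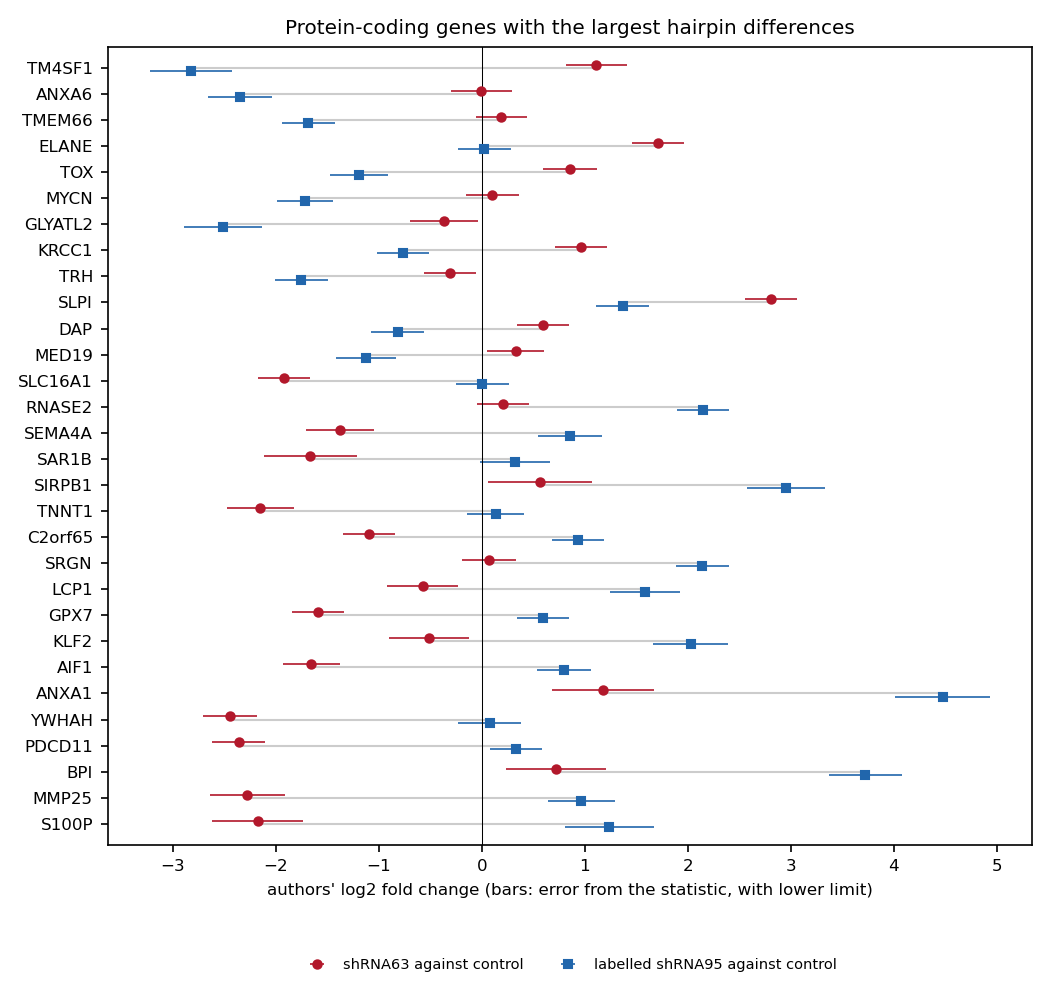
The authors' log2 fold change against control for 12 protein-coding genes with large positive and 18 with large negative hairpin differences among called genes of at least 5 FPKM in the higher hairpin group; red circles are shRNA63, blue squares the group labelled shRNA95, and bars the error read from the test statistic with its lower limit. TM4SF1, TOX, KRCC1 and DAP lie above 0 with shRNA63 and below 0 in the shRNA95-labelled group, and S100P, MMP25, AIF1, GPX7, C2orf65 and SEMA4A lie the other way.

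In several lists no member passed the test. DNA replication had 37 of 42 differences below 0 and a median of -0.24. Mitosis had a median of -0.10 over 26 genes, interferon-stimulated genes -0.19 over 22, NF-kB targets -0.06 over 13, MHC class I presentation -0.13 over 12, small RNA processing 0.11 over 13 and hypoxia response 0.10 over 12. At an unadjusted p under 0.05, 4 interferon-stimulated genes, 1 mitosis gene and 1 gene of MHC class I presentation were lower, and of the NF-kB targets 2 were lower and 1 higher; the other lists had none. The 13 mitochondrially encoded respiratory chain genes had a median of 0.14 with 9 above 0. The 14 reference genes had a median of -0.06 and a range from -0.63 (ACTB) to 0.74 (HPRT1), with none past the test, adjusted or not. The 18 measured genes of the AML1-ETO complex and blood transcription factors had 13 differences above 0, a median of 0.16 and none past the test; SPI1 was the only one with an unadjusted p under 0.05. SPI1, the myeloid factor PU.1, was at 69.2 FPKM with shRNA63 and 126 FPKM in the shRNA95-labelled group against controls of 42.0 and 40.8 FPKM (adjusted p of 0.403). RUNX1 and RUNX1T1, the partner genes of the fusion, gave differences of 0.44 and 0.67 and did not pass. The lists differ in size and level, and their medians are descriptions without a test.

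The authors' deposited table of an AML1-ETO knockdown compares 1 library with 1 control library from another series and has no replicate check. There, 23 of 13717 genes were up (0.168%) and 35 down (0.255%) by the authors' q. By the authors' deposited table, 3 of the 18 genes higher with shRNA63 were called down and none up: TM4SF1, GLYATL2 and MYCN, with log2 fold changes of -6.03, -3.76 and -3.49. Each of these was also lower than control in the shRNA95-labelled group, and TM4SF1 was higher than control with shRNA63. Of the 66 genes lower with shRNA63 that it tested, the authors' deposited table calls 4 up (BPI, ANXA1, RNASE2, LAPTM5, with log2 fold changes of 6.23, 4.02, 2.40 and 4.82) and TTC29 down. By the authors' deposited table the median log2 fold change was -0.29 for the 18 genes, 0.045 for the 66 and -0.11 for all protein-coding genes.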

How the data were processed

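Per the file headers, each table is laid out as Cuffdiff output for 62016 Ensembl genes. The submitters' processing notes name TopHat2 2.0.8b, Cuffdiff 2.1.1 and the build hg19, with no role. The deposited FPKM are the authors' group values, 1 for the 2 libraries of a group. The authors' log2 fold change, test statistic (a score per gene), p-value and q-value were used as deposited. The AML1-ETO table has 2 FPKM columns from another series, which stayed out.

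The error of a log2 fold change is its size divided by the statistic, raised to the 10th percentile where smaller (0.252 and 0.254). The tables' log2 fold changes were subtracted, divided by their joint error (squared errors summed, then the root) and read two-sided as a normal deviate; p-values were adjusted by Benjamini-Hochberg over 13870 genes, and 144 genes had no error. Group values allow no exact test. The shared controls make these errors too wide. An alternative removed the control's part, which was assumed and not estimated: for every gene the control was taken to add as much variance as each hairpin group. Of the 85 called protein-coding genes, 80 have a deposited p at its smallest value, 5e-05, in a table. At that value the error read from p is a fixed share of the fold change and grows with it. A call lost with that error can therefore come from the limit on p. The test was also run on simulated data drawn with these same errors, which cannot check whether the errors themselves are right.

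Read counts were not used, so depth is unknown. The most frequent log2 fold change of genes too low for the authors to test was 0.34 with shRNA63 and 0.50 with shRNA95, a value that 194 and 200 genes had. Taken as genes with equal reads in both groups, they give the hairpin groups 0.790 and 0.707 times the depth of the control.

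The naming rule picked JMJD1C, the 15 highest and 15 lowest called genes of at least 5 FPKM in the higher hairpin group (those that are not protein-coding are named without values), those with opposite calls by the authors, and per list its called members, filled up to 4 by level. The text does not give every gene picked: C19orf38, CR1 and RP6-159A1.3 of the opposite calls are left out. Several lists are given by counts and medians with no or few members named. ATF4, ASNS, CEBPG, GOT1, HMGCS1, MVK, MSMO1, HSPA5, PDIA4, MANF, MNDA, AZU1, CTSG, SRGN, LAPTM5, CXCR4, SPI1, RUNX1, RUNX1T1, TSPAN3, PDHA1, NRAS, MYCN, TRH, CDKN1C, IDH1, GLYATL2, TTC29, HPRT1 and genes named for a promoter match alone were added after their values were seen. The comparison, its members and the 36 lists were chosen with earlier results of these data known. Gene types come from GENCODE v29 and promoters from RefSeq. Python 3.11.15, pandas 2.3.3 and scipy 1.17.1 were used.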

Additional observations from a re-analysis of the deposited data

How the results depend on the processing

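The counts of called genes depend on how the error is set. Against 49 higher and 101 lower genes, 199 and 388 were called once the control's assumed part of the error was taken out. Of these, 124 and 279 were protein-coding, counted after seeing the data. The counts were 105 and 192 with no lower limit on the errors, and 31 and 82 with the limit at the 25th percentile. Errors from the deposited p gave 58 and 150. Alternatives chosen after seeing the data gave 6 and 31 with the larger of the 2 error readings, and 15 and 61 among protein-coding genes alone. Centring, the pseudocount scale and the FPKM limit kept both counts within 1.5 times. Under every setting that tested them, 4 of the 18 higher (TM4SF1, TOX, KRCC1, TMEM66) and 29 of the 67 lower protein-coding genes were called. With the larger error 34 of the 85 called protein-coding genes kept their call, and of those named in the text BPI, ANXA1, S100A9, RNASE2, SRGN, LAPTM5, CXCR4, ELANE, SLPI, ANXA6, MYCN, TRH, CDKN1C, IDH1, GLYATL2, YWHAH, SLC16A1, PDHA1, NRAS, CHAC1, PHGDH, SLC7A5, EGR1, ADSS and RRM2B lost it. NRAS and SLC7A5 lost it in 5 settings, EGR1 in 4, SLPI and TRH in 3. Where the deposited p is at its smallest value, the error read from it grows with the fold change, so such losses can come from that limit. For JMJD1C the difference of log2 fold changes, -0.92, passed once the control's assumed part of the error was taken out (adjusted p of 0.0481). None of the 55 genes named by rule and tested again changed sign under any setting. The medians of 4 of 36 lists changed sign: primary granule (0.135), lymphoid (0.19) and tetraspanin (-0.07) at 5 FPKM and histones (-0.08) without a limit. No paired analysis was possible because the tables hold 1 value per group, and for the same reason leaving out libraries was not run.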
